A study of Drosophila melanogaster with 21 samples.

Results

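The genes described here encode 4 groups of *Drosophila melanogaster* cell surface proteins: Dpr, DIP, Beat and Side. They were chosen by symbol alone, as every gene named *dpr* with a number, *DIP-*, *beat-*, *side* or *side-* with a suffix that has a probe set of its own on the array. This gave 51 genes of the 11982 with such a probe set: 20 *dpr*, 10 *DIP*, 13 *beat* and 8 *side* genes. *DIP-lambda*, *beat-Ib* and *dpr21* bear names of the same kind and were not analysed here. A gene with several probe sets, as 23 of the 51 have, is represented by whichever of them had the highest average over all 21 arrays.

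RNA was measured on Affymetrix Drosophila 2.0 arrays in mosaic eye-antennal discs, the larval epithelia that form the eye and antenna, taken on day 5 after egg deposition, in the 3rd instar. All animals had the w1118 background, and each of the 7 groups has 3 arrays. The groups were discs with control FRT clones (FRT control), discs with overexpression of Abrupt, a BTB-zinc finger protein (*ab*), *scrib* mutant discs overexpressing Abrupt (*scrib-*+*ab*), *scrib* mutant discs expressing RasV12 (*scrib-*+*RasACT*) or NotchICD (*scrib-*+*NACT*), and the Ras and Notch genotypes with added expression of dominant negative Basket, the fly JNK (*scrib-*+*RasACT*+*bskDN* and *scrib-*+*NACT*+*bskDN*). The labels describe the FRT control and *ab* as free of tumours and the other 5 groups as tumours. Per the study's methods, clones were made with *ey-FLP* and *FRT82B*, carried the *scrib1* allele where *scrib* was removed, and expressed transgenes from *tub-GAL4*. A mosaic disc therefore also held tissue outside the clones, and in these bulk samples fewer cells of a type and less RNA per cell cannot be told apart. No group lacked *scrib* without an added oncogene, and none expressed *bskDN* alone.

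Dpr and DIP proteins belong to the immunoglobulin superfamily and sit on the surface of neurons and some muscles. Each DIP binds its own subset of Dprs on a neighbouring cell, and matched pairs guide the choice of synaptic partners, among others in the fly visual system, where photoreceptors and their targets express different members. Beat and Side proteins, of the same superfamily, also bind each other between cells: Side on the tissue ahead is recognised by Beat-Ia on motor axons, which steers the axons towards muscle. Eye-antennal discs of this stage hold differentiating photoreceptors, undifferentiated epithelium, glia and some other cells.

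The deposited values are log2 signals with a lowest value, the floor, of 2.17 and a highest value of 16.17. A level at the floor shows no signal above background, and a difference from such a level depends on the background correction. Some probe sets repeated a value above the floor: *beat-IIIa* 2.37 on 14 arrays, *DIP-delta* 2.65 on 7, *side-VII* 2.87 on 11 and *side-IV* 3.31 on 7. Whether such a repeated value is signal above background was not tested. Of the 8 eye and antennal epithelium markers listed, 7 were measured and none was under 3 log2 in any group. The 6 arrays of *ab* and *scrib-*+*ab* stood apart from the other 15: the mean signal of their poly-A spike-ins was 2.19 to 2.3 log2 against 5.39 to 7.27, and the 5′ minus 3′ signal of GAPDH ran from -3.69 to -2.2 against -0.67 to -0.29. Per the methods, RNA for these 2 groups also came from fewer discs than the control RNA did. Array run, amount of tissue and genotype cannot be told apart where Abrupt groups are set against the FRT control.

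Few of the surface genes were expressed at a high level. A group mean of at least 5 log2 was reached in at least 1 genotype by 12 of the 51 genes (23.5%), and by 56% of all genes. They were 8 *dpr* genes (*dpr5*, *dpr7*, *dpr8*, *dpr9*, *dpr16*, *dpr17*, *dpr18* and *dpr19*), *DIP-alpha*, *DIP-theta*, *beat-IIIc* and *side-V*. A further 5 (*dpr10*, *dpr12*, *DIP-delta*, *side-IV* and *side-VII*) exceeded 3 log2 on at least 1 array, with every group mean under 5. The other 34 (66.7%, against 35.2% of all genes) stayed under 3 log2 on all 21 arrays, between 2.17 and 2.82.

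The 34 low genes were spread unevenly over the 4 groups of proteins. They included 12 of the 13 *beat* genes, all but *beat-IIIc*. Of the *DIP* genes, *DIP-beta*, *DIP-gamma*, *DIP-epsilon*, *DIP-zeta*, *DIP-eta*, *DIP-iota* and *DIP-kappa* were low. The 10 low *dpr* genes were *dpr1*, *dpr2*, *dpr3*, *dpr4*, *dpr6*, *dpr11*, *dpr13*, *dpr14*, *dpr15* and *dpr20*. *side* itself, *side-II*, *side-III*, *side-VI* and *side-VIII* were low as well. The number of surface genes at or above 5 log2 was 4 in the FRT control, 6 in *ab*, 6 in *scrib-*+*ab*, 5 in *scrib-*+*RasACT*, 3 in *scrib-*+*NACT* and 3 in *scrib-*+*NACT*+*bskDN*. It was 8 in *scrib-*+*RasACT*+*bskDN*, while the share of all genes at that level ran only from 49.9 to 52.8% over the 7 groups.

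**Figure D1:**
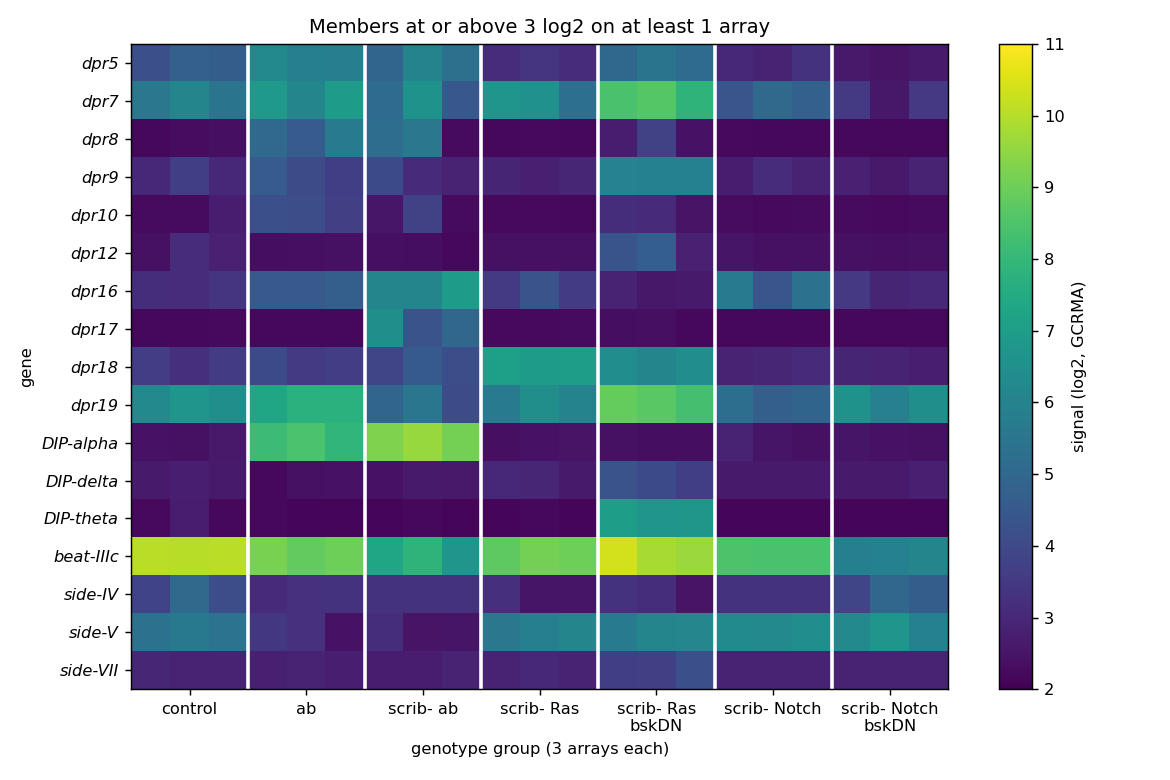
Signal (log2, colour) of the 17 surface genes that reached 3 log2 on at least 1 array (vertical axis) on each of the 21 arrays (horizontal axis, 3 per genotype). *beat-IIIc* is bright in every group, *DIP-alpha* lights up only in the *ab* and *scrib-*+*ab* columns, and *DIP-theta* and *dpr9* are brightest in *scrib-*+*RasACT*+*bskDN*.

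How Abrupt-overexpressing discs compare with *scrib-*+*ab* tumours is a question the series states. *DIP-alpha* rose from near the floor to a high level in both genotypes and *side-V* fell in both, while *dpr17* rose in the tumours and lay near the floor in *ab*. In *ab* against the FRT control, 4 of the 51 genes rose (7.84%, against 9.6% of all genes) and 3 fell (5.88%, against 6.79%), at an adjusted p under 0.05 and a log2 change over 1 in either direction. In *scrib-*+*ab* against the control, 3 rose (5.88%, against 9.98% of all genes) and 4 fell (7.84%, against 10.1%). Each of these shares was below that of all genes. In *scrib-*+*ab* against *ab*, 3 were higher (5.88%, against 2.09% of all genes) and 2 were lower (3.92%, against 2.84%). The median change of the 51 genes was 0 in each of the 3 comparisons, as it was for all genes, and the comparisons share arrays with each other. With 34 of the 51 under 3 log2 on every array, this median could hardly leave 0.

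*DIP-alpha*, a receptor of motor neurons and visual system neurons, had the largest change of the 51 genes. Its level was 2.44, 2.42 and 2.61 log2 on the control arrays. It was 8.17, 8.45 and 7.93 in *ab* and 9.26, 9.61 and 9.11 in *scrib-*+*ab*. The other 12 arrays lay between 2.32 and 2.86, so the 6 arrays with Abrupt stood apart from all others. The log2 change against the control was 5.69 (SE 0.17, limma adjusted p = 6e-06) in *ab* and 6.83 (SE 0.17, adjusted p = 2.5e-06) in *scrib-*+*ab*. The tumours exceeded the *ab* discs by 1.14 (SE 0.17, adjusted p = 0.011) with no overlap of the arrays.

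*dpr10* and *dpr6* encode known binding partners of DIP-alpha. *dpr10*, which in motor circuits is made by muscles, stood at 4.18, 4.12 and 3.69 log2 in *ab* and at 2.27, 2.27 and 2.69 in the control. Its rise in *ab* was 1.59 (SE 0.39, adjusted p = 0.026). In *scrib-*+*ab* it was 2.56, 3.73 and 2.25, which overlapped the control, and the log2 difference of 0.44 (SE 0.39) did not pass. *dpr6* stayed between 2.17 and 2.63 on all 21 arrays, so of this trio only *DIP-alpha* reached a high level.

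*dpr16* and *dpr17* encode partners of DIP-gamma, a receptor of visual system neurons. *dpr16* was at 3.17, 3.15 and 3.40 log2 in the control, 4.51, 4.53 and 4.71 in *ab*, and 6.10, 6.13 and 6.99 in *scrib-*+*ab*. The 3 groups did not overlap, and the steps were 1.35 (SE 0.25, adjusted p = 0.0075) from control to *ab* and 1.82 (SE 0.25, adjusted p = 0.0076) from *ab* to the tumours. *scrib-*+*ab* exceeded the control by 3.17 (SE 0.25, adjusted p = 0.00016). *dpr17* was at 6.49, 4.30 and 4.97 in *scrib-*+*ab* and between 2.19 and 2.37 on the other 18 arrays. It rose by 3.04 (SE 0.51, adjusted p = 0.0046) against the control and by 3.06 (SE 0.51, adjusted p = 0.015) against *ab*. *DIP-gamma* did not exceed 2.26 on any array, and *dpr11* and *dpr15*, the other known partners of its protein, lay near the floor. *dpr15* is separated from *dpr17* by 1 gene in the RefSeq order, and it was at 2.17 on all 21 arrays.

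*dpr5* was at 6.25, 5.88 and 5.86 log2 in *ab* and at 4.18, 4.77 and 4.65 in the control, a rise of 1.47 (SE 0.3, adjusted p = 0.013). In *scrib-*+*ab* it was at 4.94, 6.01 and 5.33, a difference of 0.89 from the control that did not pass (SE 0.3, adjusted p = 0.078). Its direct neighbour in the RefSeq order, *dpr4*, lay near the floor in every group, so the level of *dpr5* was not shared by the gene beside it.

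*dpr19* differed between the Abrupt genotypes. It was at 7.32, 7.76 and 7.74 log2 in *ab*, 6.22, 6.72 and 6.47 in the control, and 4.93, 5.53 and 4.07 in *scrib-*+*ab*. The 3 groups did not overlap. In *scrib-*+*ab* it fell by 1.62 against the control (SE 0.37, adjusted p = 0.017), and its log2 change against *ab* was -2.76 (SE 0.37, adjusted p = 0.0075). The difference of 1.14 between *ab* and the control did not pass (SE 0.37, adjusted p = 0.071). It passed with a filter on low values and when only the *ab* and control arrays were fitted.

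*beat-IIIc*, the 1 *beat* gene with a high level, stood at 10.06, 10.03 and 10.08 log2 in the control, the highest level of the 51 genes there. It was at 9.19, 8.85 and 9.01 in *ab* and at 7.31, 7.87 and 6.74 in *scrib-*+*ab*. The groups did not overlap. It fell by 1.04 in *ab* (SE 0.27, adjusted p = 0.03) and by 2.75 in *scrib-*+*ab* (SE 0.27, adjusted p = 0.00041), and the tumours were 1.71 lower than the *ab* discs (log2 change -1.71, SE 0.27, adjusted p = 0.012). The other *beat-IIIc* probe set had the same group mean of 8.81 in the control and in *ab*. In *scrib-*+*ab* it fell by 1.63 (adjusted p = 0.0016).

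*side-V* and *side-IV* fell with Abrupt. *side-V* was at 5.37, 5.64 and 5.44 log2 in the control, 3.46, 3.30 and 2.45 in *ab*, and 3.18, 2.47 and 2.51 in *scrib-*+*ab*. It fell by 2.41 in *ab* (SE 0.31, adjusted p = 0.0017) and by 2.77 in *scrib-*+*ab* (SE 0.31, adjusted p = 0.00079), and the Abrupt groups overlapped each other. In Ras and Notch tumours, with and without *bskDN*, its 12 values ran from 5.57 to 6.68, and it was called in none of their comparisons. *side-IV*, whose protein binds Beat-IIa and Beat-IIb, was at 3.82, 5.12 and 4.15 in the control, at 3.09, 3.29 and 3.31 in *ab*, and at 3.31 on each *scrib-*+*ab* array. It fell by 1.14 (SE 0.32, adjusted p = 0.039) in *ab* and by 1.06 (SE 0.32, adjusted p = 0.049) in *scrib-*+*ab*. Its value, 3.31 when rounded, was identical to 3 decimals on 7 arrays, and *beat-IIa* and *beat-IIb* lay near the floor.

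*dpr8* reached a high level without a call. It was at 5.07, 4.61 and 5.70 log2 in *ab*, 5.23, 5.59 and 2.25 in *scrib-*+*ab*, and 2.20, 2.29 and 2.36 in the control. *ab* and control arrays did not overlap, but replicate 3 of *scrib-*+*ab* lay with the controls, and the difference of 2.85 between *ab* and control did not pass (SE 0.88, adjusted p = 0.058). It passed with a filter on low values and when only the *ab* and control arrays were fitted. In *scrib-*+*ab* *dpr8* passed with that filter and without replicate 3.

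**Figure D2:**
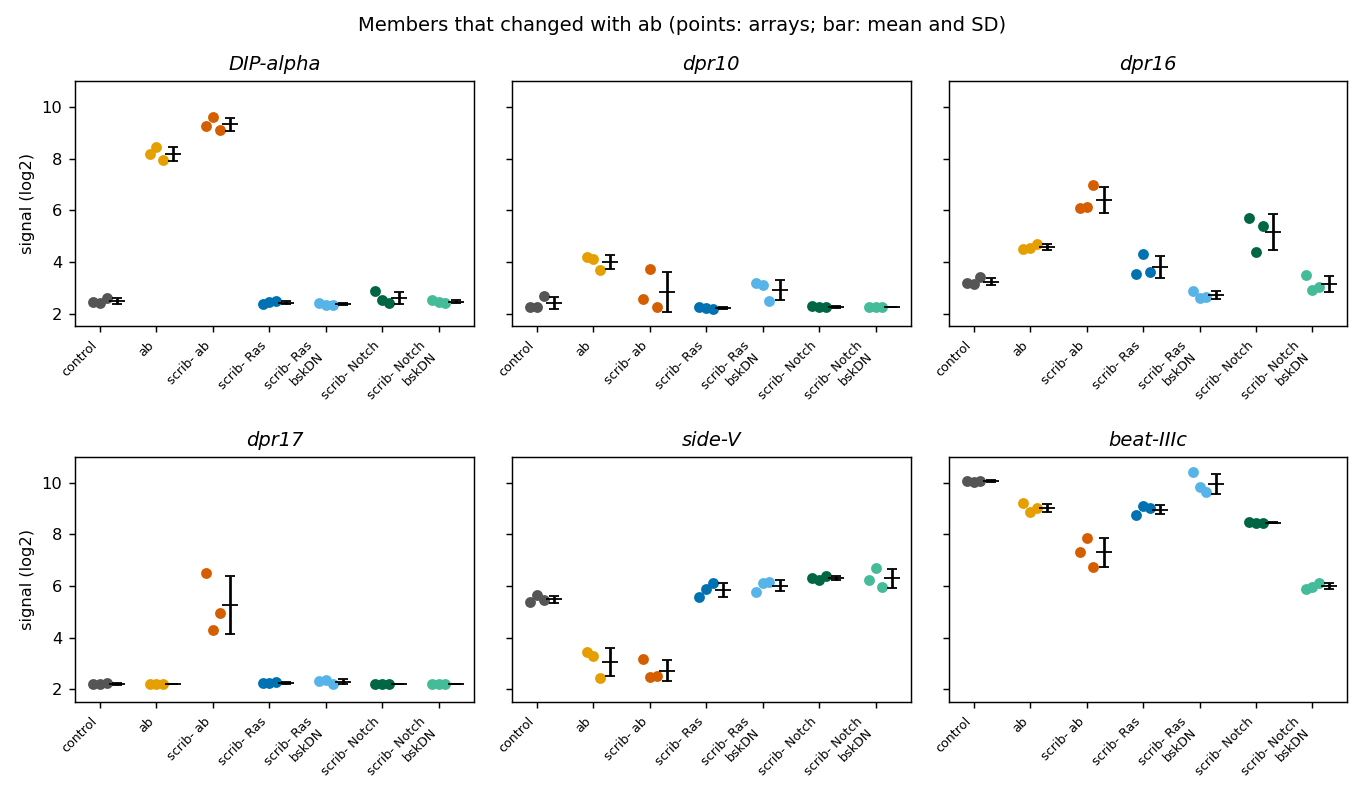
Signal (log2, vertical axis) of 6 surface genes on each array of the 7 genotypes (horizontal axis); points are arrays, and the bar beside them gives the mean and the SD of the 3. *DIP-alpha* stands at 7.93 log2 or above in *ab* and *scrib-*+*ab* and at 2.86 or below elsewhere, and *side-V* is low in the same 2 groups.

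Some of these calls were lost when an array was left out. The fall of *beat-IIIc* in *ab* was not called without any 1 of the 6 arrays compared (adjusted p 0.06 to 0.099, log2 changes of -1.13 to -0.96), nor was the rise of *dpr10* without *ab* replicate 1 or 2 or any 1 control array (0.053 to 0.085, log2 changes of 1.5 to 1.73). *side-IV* lost its call in *ab* without *ab* replicate 1, 2 or 3 or control replicate 3 (0.073 to 0.12), and in *scrib-*+*ab* without any 1 of the tumour arrays or control replicate 3 (0.083 to 0.12). Without control replicate 2 its change was under 1 in both. *dpr19* in *scrib-*+*ab* was not called without control replicate 2 (0.064) or 3 (0.056). Against *ab*, *dpr17* was not called without *ab* replicate 1 or 2 (0.053 each), and *DIP-alpha* fell to a log2 difference of 1 without *scrib-*+*ab* replicate 2. *DIP-alpha* and *side-V* in both genotypes, and *dpr16*, *dpr17* and *beat-IIIc* in *scrib-*+*ab*, were called against the control under every alternative in which they were tested. The filter on low values left *dpr17* out.

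Other calls in *ab* depended on the scaling or on how the spread was estimated. With a further quantile normalization the rise of *dpr16* was 0.45 (adjusted p = 0.35), that of *dpr5* 0.95 (adjusted p = 0.11) and that of *dpr10* 0.75 (adjusted p = 0.12). With trended and robust moderation the adjusted p of these 3 genes was 0.097, 0.082 and 0.1. With the mean over the probe sets of a gene the rise of *dpr16* was 0.67 and the change of *beat-IIIc* -0.52 (adjusted p = 0.18).

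None of the 5 calls between *scrib-*+*ab* and *ab* held with a spread estimated by trended and robust moderation (adjusted p 0.05 for *dpr19* to 0.18 for *DIP-alpha*) or from the 6 arrays alone (0.05 for *dpr19* to 0.088 for *dpr17*). In both settings all 5 genes had an unadjusted p under 0.05.

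Markers of other cell types also moved in these groups. The summed level of 7 haemocyte markers ran from 9.86 to 10.53 log2 in the control, 11.6 to 11.92 in *ab* and 12.55 to 12.8 in *scrib-*+*ab*. Of the 7, 3 rose in *ab* (*NimC1*, *crq* and *Sr-CI*) and 4 in *scrib-*+*ab* (these and *Pxn*). Group means in the control, *ab* and *scrib-*+*ab* were 7.67, 6.68 and 7.06 for *Hml* and 6, 5.72 and 4.35 for *srp*. These were lower than the control but not called, as was *vkg* in *ab*. The summed level of the 3 muscle markers measured was 6.84 to 8.03 in the control, 10.28 to 11.16 in *ab* and 10.72 to 11.18 in *scrib-*+*ab*. *Mlc2* and *TpnC73F* rose in both, and *twi* stayed under 3 log2 in every group. The 11 photoreceptor and neuron markers summed to 12.96 to 13.21 in the control, 12.92 to 13.18 in *ab* and 12.36 to 12.78 in *scrib-*+*ab*. Of the 11, 2 fell in *ab* (*sens* and *gl*) and 0 rose. In *scrib-*+*ab* 4 fell (*sens*, *ato*, *ase* and *gl*) and 1 rose (*lz*). Of the 4 neuroblast markers, *dpn* and *mira* fell in both groups, and *insc* rose in *scrib-*+*ab*. The part of these cells in the levels of *DIP-alpha*, *dpr10* and the others was not tested.

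In the *scrib* mutant tumours driven by Ras or Notch without *bskDN*, few surface genes differed from the control. In *scrib-*+*RasACT*, 1 of the 51 genes rose (1.96%, against 3.62% of all genes) and 3 fell (5.88%, against 4.02%). In *scrib-*+*NACT*, 1 rose (1.96%, against 1.99%) and 3 fell (5.88%, against 2.86%). With *bskDN* the Ras tumours had 7 higher genes (13.7%, against 2.42% of all genes) and 1 lower (1.96%, against 1.73%). The Notch tumours with *bskDN* had 0 higher (0%, against 1.82%) and 3 lower (5.88%, against 5.06%). In that group limma called no gene of the 51 higher, and 1, *side-V*, was higher at an unadjusted p under 0.05 (log2 difference 0.81, adjusted p = 0.048). The median change of the 51 genes, most of them near background, was 0 in all 4 comparisons, which share the 3 control arrays.

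*dpr18* marked the Ras tumours. It was at 7.08, 6.97 and 7.05 log2 in *scrib-*+*RasACT* and at 6.41, 6.09 and 6.42 in *scrib-*+*RasACT*+*bskDN*. In the control it was at 3.64, 3.25 and 3.58. The Notch tumours had 2.91, 2.98 and 3.12, and with *bskDN* 2.94, 2.89 and 2.77. The *ab* arrays had 4.01, 3.53 and 3.63 and the *scrib-*+*ab* arrays 3.87, 4.55 and 4.16. All 6 Ras arrays lay above the other 15. The rises were 3.55 (SE 0.16, adjusted p = 2.1e-09) and, with *bskDN*, 2.82 (SE 0.16, adjusted p = 4.4e-08), and both were called under every alternative.

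*DIP-theta* was expressed in a single genotype. It was at 7.01, 6.68 and 6.75 log2 in *scrib-*+*RasACT*+*bskDN*. In the control it was at 2.23, 2.70 and 2.18, and on the other 15 arrays it did not exceed 2.20. Its rise was 4.44 (SE 0.1, adjusted p = 3.6e-13), the largest of the 51 genes in that group. *DIP-eta*, separated from it by 1 gene in the RefSeq order, did not exceed 2.73 on any array.

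*DIP-delta* and *dpr12* encode a receptor and ligand pair that shapes a lobe of the mushroom body, a learning centre of the brain. *DIP-delta* was at 4.31, 4.01 and 3.68 log2 in *scrib-*+*RasACT*+*bskDN*, 3.05, 2.98 and 2.65 in *scrib-*+*RasACT* and 2.65, 2.75 and 2.65 in the control. It rose by 1.32 (SE 0.13, adjusted p = 1.3e-05). *dpr12* was at 4.33, 4.70 and 2.82 with *bskDN* and at 2.41, 3.15 and 2.82 in the control, and between 2.18 and 2.51 elsewhere. Its rise of 1.16 (SE 0.33, adjusted p = 0.035) was carried by replicates 1 and 2, and the third array overlapped the control. Within this group both genes were lowest on replicate 3, and both were under 5 log2 throughout.

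*dpr9*, *dpr7* and *dpr19* rose in the same tumours. *dpr9* was at 5.99, 5.97 and 5.94 log2 in *scrib-*+*RasACT*+*bskDN* and at 3.03, 3.68 and 3.05 in the control, a rise of 2.72 (SE 0.28, adjusted p = 1.7e-05). It was at 4.60, 4.07 and 3.66 in *ab* and at 4.01, 3.06 and 2.85 in *scrib-*+*ab*, and the Ras arrays without *bskDN* and all Notch arrays lay between 2.61 and 3.14. The *bskDN* Ras arrays therefore stood above all others.

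*dpr7* was at 8.42, 8.61 and 7.86 log2 in *scrib-*+*RasACT*+*bskDN* and at 5.59, 6.12 and 5.48 in the control. It rose by 2.57 (SE 0.51, adjusted p = 0.0042). It fell in *scrib-*+*NACT*+*bskDN*, where it was at 3.53, 2.59 and 3.50, by 2.52 (SE 0.51, adjusted p = 0.0024). The 3 groups did not overlap, so the same gene moved in opposite directions in the tumours with *bskDN*. In the remaining groups it was at 6.69, 6.56 and 5.29 (*scrib-*+*RasACT*), 4.39, 5.11 and 4.77 (*scrib-*+*NACT*), 6.85, 6.12 and 6.99 (*ab*) and 5.15, 6.64 and 4.43 (*scrib-*+*ab*).

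*dpr19* was at 8.89, 8.71 and 8.35 log2 in *scrib-*+*RasACT*+*bskDN*, above its control values by 2.18 (SE 0.32, adjusted p = 0.00042). In *scrib-*+*NACT* it was at 5.24, 4.71 and 4.91, and fell by 1.52 (SE 0.32, adjusted p = 0.005). It was at 5.68, 6.43 and 6.01 in *scrib-*+*RasACT* and at 6.61, 5.92 and 6.48 in *scrib-*+*NACT*+*bskDN*, both overlapping the control.

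*dpr5* fell in 3 tumour groups. It was at 3.15, 3.34 and 3.14 log2 in *scrib-*+*RasACT*, where it fell by 1.32 (SE 0.23, adjusted p = 0.00063). It was at 3.01, 2.90 and 3.31 in *scrib-*+*NACT*, where it fell by 1.46 (SE 0.23, adjusted p = 0.00049). In *scrib-*+*NACT*+*bskDN*, at 2.60, 2.49 and 2.64, it fell by 1.95 (SE 0.23, adjusted p = 1.9e-05). It was at 5.02, 5.45 and 5.16 in *scrib-*+*RasACT*+*bskDN*, above the control arrays but not called.

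*dpr16* rose in *scrib-*+*NACT*, where it was at 5.70, 4.38 and 5.39 log2, by 1.92 (SE 0.31, adjusted p = 0.00075). With *bskDN* the Notch tumours had 3.48, 2.92 and 3.02, around the control. The Ras tumours had 3.53, 4.31 and 3.60 without *bskDN* and 2.88, 2.59 and 2.65 with it. *dpr16* was thus raised in 3 of the tumour or Abrupt genotypes, whereas *dpr17* was raised in *scrib-*+*ab* alone.

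*beat-IIIc* was lower than in the control in 3 of the 4 groups. It was at 8.76, 9.11 and 9.0 log2 in *scrib-*+*RasACT* (log2 change -1.1, SE 0.23, adjusted p = 0.0024). It was at 8.48, 8.43 and 8.43 in *scrib-*+*NACT* (log2 change -1.61, SE 0.23, adjusted p = 2e-04). In *scrib-*+*NACT*+*bskDN* it was at 5.89, 5.94 and 6.11, the lowest of all arrays (log2 change -4.08, SE 0.23, adjusted p = 1.1e-08). In *scrib-*+*RasACT*+*bskDN*, at 10.39, 9.81 and 9.63, it overlapped the control. The other probe set of *beat-IIIc* gave log2 changes of -1.39, -1.87 and -4.14 in the same 3 groups, each called.

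*side-IV* fell in the Ras tumours. It was at 3.26, 2.50 and 2.50 log2 in *scrib-*+*RasACT* (log2 change -1.61, SE 0.33, adjusted p = 0.0025) and at 3.31, 3.19 and 2.47 in *scrib-*+*RasACT*+*bskDN* (log2 change -1.38, SE 0.33, adjusted p = 0.015). It was at 3.31 on all *scrib-*+*NACT* arrays, below every control array. That change of -1.06 did not pass (SE 0.33, adjusted p = 0.055), but passed without control replicate 1. In *scrib-*+*NACT*+*bskDN* *side-IV* was at 3.88, 4.96 and 4.67, within the range of the control. The call in *scrib-*+*RasACT*+*bskDN* was lost without replicate 3 of that group (adjusted p 0.078) or control replicate 2 (0.069). Both Ras calls were lost when only the arrays compared were fitted (0.12 and 0.18).

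The call of *dpr12* was lost without replicate 1 (adjusted p 0.14) or 2 (0.15) of *scrib-*+*RasACT*+*bskDN* and without control replicate 1 (0.14) or 3 (0.093). With the mean over the probe sets of a gene, *dpr12* (0.40) and *DIP-delta* (0.81) in that group and *dpr16* in *scrib-*+*NACT* (0.96) changed by less than 1, and *dpr16* was also lost when only the arrays compared were fitted (adjusted p 0.071). *side-VII*, at 3.66, 3.70 and 4.19 log2 in *scrib-*+*RasACT*+*bskDN* and between 2.71 and 3.03 elsewhere, was not called, but passed without replicate 1 or 2 of that group.

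**Figure D3:**
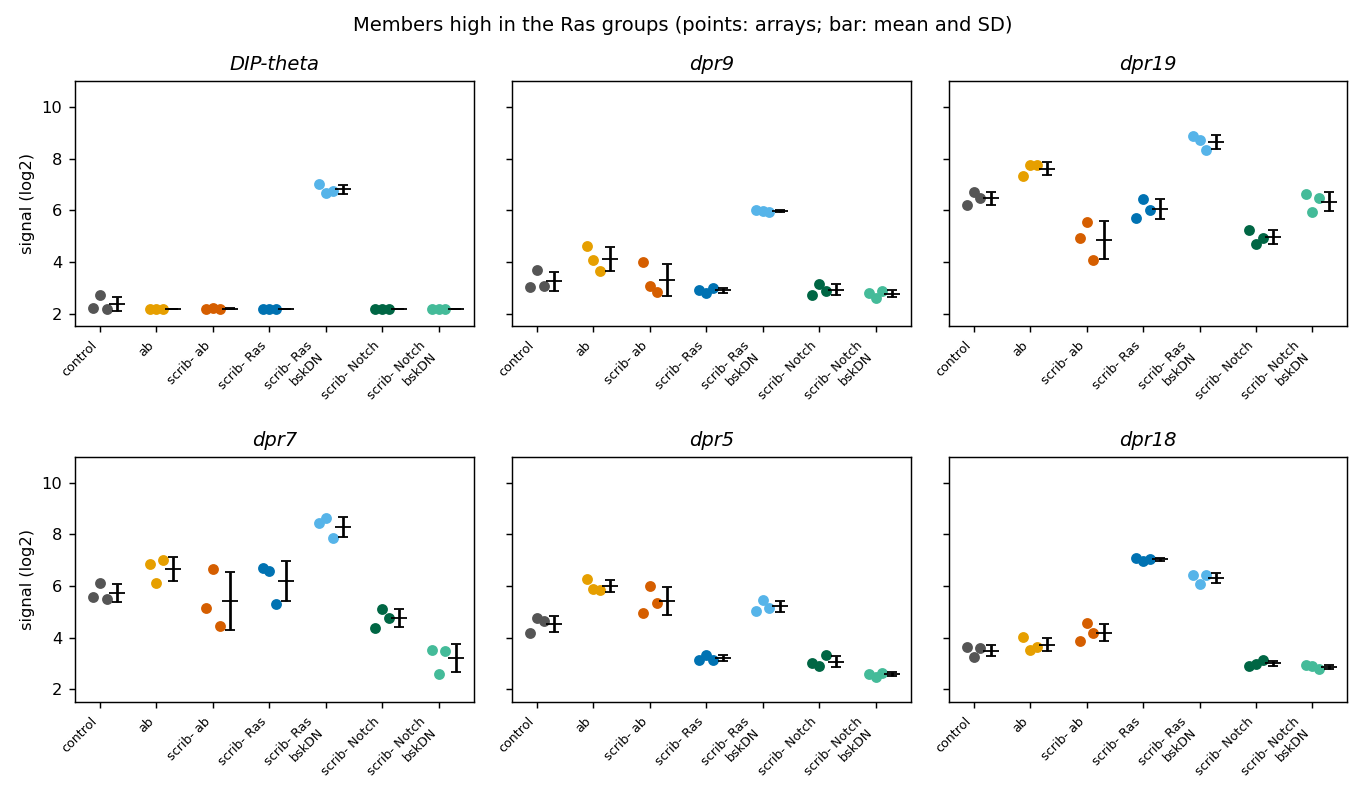
Signal (log2, vertical axis) of 6 surface genes on each array of the 7 genotypes (horizontal axis); points are arrays, and the bar beside them gives the mean and the SD of the 3. *DIP-theta* and *dpr9* are high in *scrib-*+*RasACT*+*bskDN* alone, *dpr18* is high in both Ras groups, and *dpr7* is highest in *scrib-*+*RasACT*+*bskDN* and lowest in *scrib-*+*NACT*+*bskDN*.

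The series asks which genes respond to JNK in the Ras and Notch tumours. The JNK effect is given as the log2 level without *bskDN* minus that with it, so a negative effect is a gene that was higher when JNK was blocked. In *scrib-*+*RasACT*, 7 of the 51 genes were higher with JNK blocked (13.7%, against 2.95% of all genes) and limma called 0 lower (0%, against 2.27%). Of the 51, 2 were lower with JNK blocked at an unadjusted p under 0.05, *dpr16* with an effect of 1.10 (SE 0.35, adjusted p = 0.096) and *dpr18* with 0.73 (SE 0.096, adjusted p = 0.0019). In *scrib-*+*NACT*, 2 were higher with JNK blocked (3.92%, against 1.85%) and 3 were lower (5.88%, against 4.86%). No array is shared between these 2 effects. The effect in *scrib-*+*RasACT* does use the same *bskDN* arrays as the comparison of that group with the control.

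The 7 genes of the Ras tumours were 5 *dpr* and 2 *DIP* genes. *DIP-theta* had the largest effect, -4.64 (SE 0.07, adjusted p = 1e-08), followed by *dpr9* at -3.07 (SE 0.11, adjusted p = 1.5e-06) and *dpr19* at -2.61 (SE 0.26, adjusted p = 0.00041). *dpr7* had an effect of -2.12 (SE 0.43, adjusted p = 0.016), *dpr5* of -2.00 (SE 0.13, adjusted p = 5.3e-05) and *dpr12* of -1.54 (SE 0.4, adjusted p = 0.045). *DIP-delta* had an effect of -1.11 (SE 0.15, adjusted p = 0.0024). For each of the 7, which were picked by their call, all *bskDN* arrays lay above all arrays without it. The same held for the uncalled *beat-IIIc*, *dpr8*, *dpr10*, *dpr20*, *side-VI* and *side-VII*, and the reverse for the uncalled *dpr16* and *dpr18*. *dpr5* differs from the other 6 called genes in that its *bskDN* level was not called against the control while its level without *bskDN* had fallen below the control.

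In the Notch tumours *beat-IIIc* had an effect of 2.46 (SE 0.18, adjusted p = 5.3e-05) and its other probe set of 2.27. *dpr16* had an effect of 2.01 (SE 0.35, adjusted p = 0.005) and *dpr7* of 1.55 (SE 0.43, adjusted p = 0.044), and these 3 genes were lower with JNK blocked. *dpr19* had an effect of -1.39 (SE 0.26, adjusted p = 0.0071) and *side-IV* of -1.2 (SE 0.34, adjusted p = 0.045). *dpr19* was thus the 1 gene of the 51 called with the same sign in both tumours, and *dpr7* the 1 called with opposite signs. *dpr5* had an effect of 0.49 in the Notch tumours (SE 0.13, adjusted p = 0.038), under the log2 change needed for a call. Its Notch arrays with and without *bskDN* did not overlap.

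The JNK effect itself differed between the tumours for 6 of the 51 genes, tested as an interaction. All 6 had the more negative effect in the Ras tumours (11.8%, against 4.1% of all genes), and limma called 0 with the more positive effect (0%, against 1.48%), where *dpr18* was the 1 such gene at an unadjusted p under 0.05 (0.59, adjusted p = 0.031). The difference, Ras minus Notch, was -4.64 for *DIP-theta* (SE 0.098, adjusted p = 7.3e-08), which was at the floor in the Notch tumours with and without *bskDN*. It was -3.22 for *dpr9* (SE 0.15, adjusted p = 1.1e-05) and -2.49 for *dpr5* (SE 0.19, adjusted p = 0.00016). *dpr7* had a difference of -3.66 (SE 0.61, adjusted p = 0.0071), with its effects of -2.12 and 1.55 on either side of 0. *beat-IIIc* had a difference of -3.45 (SE 0.25, adjusted p = 0.00014). Its effect in the Ras tumours, -0.98, had an adjusted p of 0.0093 and a size just under the log2 change of 1. *DIP-delta* had the smallest difference, -1.08 (SE 0.22, adjusted p = 0.018). For *dpr12*, *dpr16*, *dpr19* and *side-IV* the difference did not pass (adjusted p 0.089 to 0.42). That of *dpr12* passed when all 21 arrays were fitted and without *scrib-*+*RasACT*+*bskDN* replicate 3. That of *dpr19* passed with the filter on low values.

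**Figure D4:**
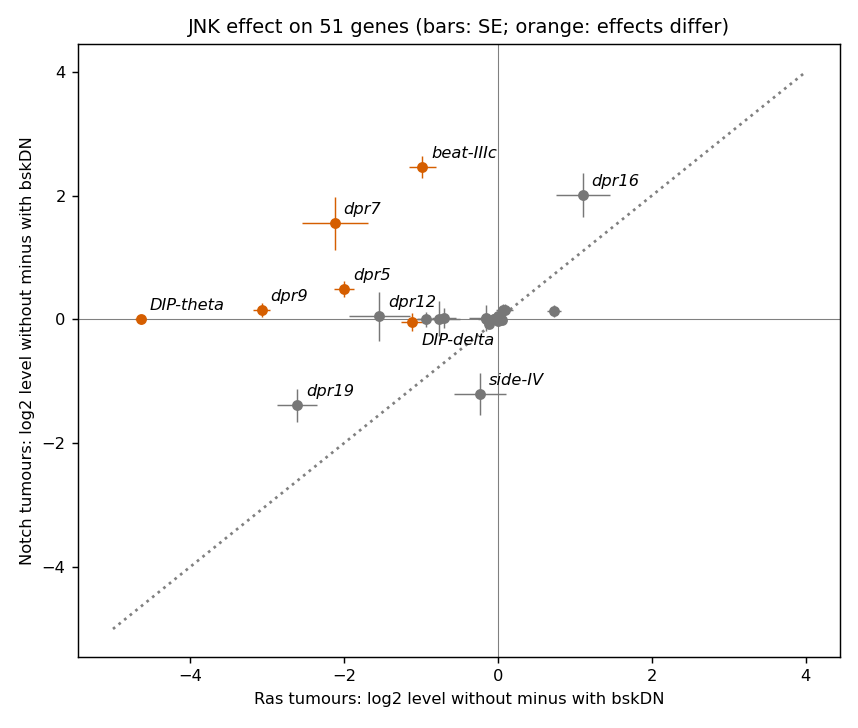
JNK effect (log2 level without minus with *bskDN*) of the 51 surface genes in the Ras tumours (horizontal axis) and in the Notch tumours (vertical axis), with SE bars; orange points are the 6 genes whose effects differed, and the dotted line marks equal effects. *DIP-theta* and *dpr9* lie far to the left near 0 on the vertical axis. *dpr5* lies to the left at 0.49 on the vertical axis, and *dpr7* and *beat-IIIc* lie in the upper left.

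**Figure D5:**
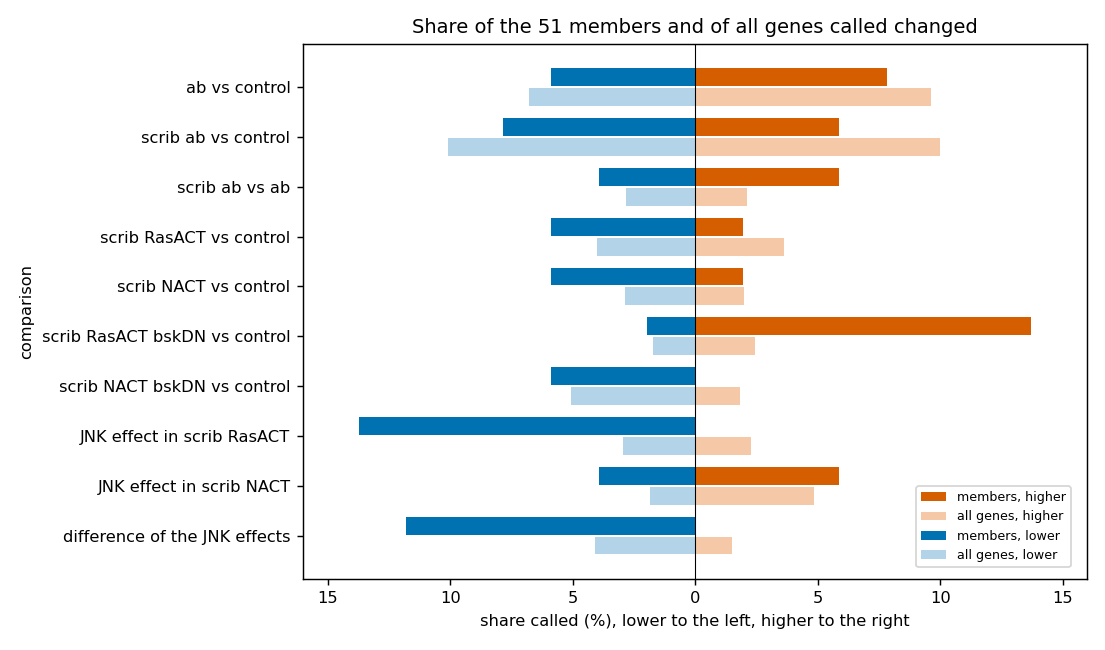
Share (%) of the 51 surface genes (dark bars) and of all genes (pale bars) called higher (right) or lower (left) in each comparison. The dark bars reach 13.7% for genes higher in *scrib-*+*RasACT*+*bskDN* than in the control and for genes with a negative JNK effect in the Ras tumours, where the pale bars reach 2.42 and 2.95%.

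Some JNK calls were also lost when an array was left out. In the Ras tumours *dpr12* lost its call without any 1 array except *bskDN* replicate 3 (adjusted p 0.066 to 0.15), and *dpr7* without *bskDN* replicate 1 (0.055) or 2 (0.063). *DIP-delta* fell below a change of 1 without *scrib-*+*RasACT* replicate 3 or *bskDN* replicate 1, in the interaction as well. With a further quantile normalization its effect was -0.89 and its interaction -0.68 (adjusted p = 0.16), and with the mean over probe sets they were -0.68 and -0.65. In the Notch tumours *dpr7* was not called without any 1 of the 6 arrays (0.051 to 0.16), nor *side-IV* without any 1 except *bskDN* replicate 1 (0.092 to 0.15). *beat-IIIc* was called in the Ras tumours without *scrib-*+*RasACT* replicate 2 or 3 or *bskDN* replicate 2 or 3. *DIP-theta*, *dpr9*, *dpr5* and *beat-IIIc* differed between the tumours under each of the alternatives, as did *dpr7* under all but the replicate block (0.056).

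Neuronal genes moved with the Ras *bskDN* arrays. The 11 photoreceptor and neuron markers measured summed to 11.73 to 12.26 log2 in *scrib-*+*RasACT* and 13.12 to 13.37 in *scrib-*+*RasACT*+*bskDN*, against 12.96 to 13.21 in the control. *elav*, expressed in all differentiated neurons, had group means of 10.41, 11.71 and 11.03, and *nSyb*, of synaptic vesicles, of 5.45, 7.4 and 5.1. In the JNK effect of the Ras tumours *elav*, *nSyb*, *chp* and *gl* were higher with JNK blocked. Against the control, *nSyb* was the 1 marker of the 11 that was higher with *bskDN*, while *sens*, *ato* and *lz* were lower. *brp*, of synaptic active zones, and *para*, a sodium channel, stayed under 3 log2 in every group. In *scrib-*+*NACT*+*bskDN* the same markers summed to 11.56 to 11.75. The summed level of the 3 fat body markers measured ranged from 6.1 to 13.18 over the arrays of *scrib-*+*RasACT*+*bskDN*. The part of neuron number in the levels of *DIP-theta*, *dpr7*, *dpr9* and *dpr19* was not tested.

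Other cell types moved in *scrib-*+*NACT*+*bskDN*, where *beat-IIIc* and *dpr7* were lowest. The 6 glial markers summed to 9.77 to 9.86 log2 there and to 11.25 to 11.4 in the control, and *repo*, *moody* and *Gs2* fell. The 7 haemocyte markers summed to 8.53 to 9.03 and to 9.86 to 10.53 in the control, and 4 of them fell. Of the 11 photoreceptor and neuron markers 7 fell there and 0 rose. The 3 muscle markers summed to 4.18 to 4.82 and to 6.84 to 8.03 in the control, and *TpnC73F* fell. The 4 neuroblast markers summed to 12.41 to 12.71 and to 10.35 to 10.6 in the control, where *dpn* rose while *mira* and *insc* fell. The part of these cells in the low levels of *beat-IIIc* and *dpr7* was not tested.

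For the known partners the levels were as follows. With *DIP-alpha* at 8.18 ± 0.26 log2 (SD, n = 3) in *ab*, *dpr10* was at 4.0 ± 0.27 (SD, n = 3), and both genes were called higher there. With *DIP-alpha* at a group mean of 9.32 ± 0.26 log2 (SD, n = 3) in *scrib-*+*ab*, *dpr10* was at 2.85 ± 0.78 (SD, n = 3). With *dpr16* at 6.41 ± 0.51 (SD, n = 3) and *dpr17* at 5.25 ± 1.1 (SD, n = 3) in those tumours, *DIP-gamma* was near the floor. *DIP-delta* at 4.0 ± 0.31 (SD, n = 3) and *dpr12* at 3.95 ± 1.0 (SD, n = 3) in *scrib-*+*RasACT*+*bskDN* were likewise both called higher in that comparison with the control. Of the Beat and Side pairs, *side* with *beat-Ia* and *beat-Ic*, *side-VI* with *beat-Va*, *beat-Vb* and *beat-Vc*, and *side-II* with *beat-VI* were all under 3 log2 on every array. RNA from whole discs does not show which cells carry these proteins.

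Of 49 other genes of neuronal surface recognition that were listed for comparison, 43 were measured. In *ab* against the control 7 of the 43 rose (against 9.6% of all genes) and 2 fell (against 6.79%). In *scrib-*+*ab* 3 rose (against 9.98%) and 6 fell (against 10.1%). The rises in both included *nrm* (log2 change 3.7, adjusted p = 0.0027, in *ab*), *hbs*, a Nephrin-like protein, and *Ten-a*, a teneurin of synaptic partner matching. In the JNK effect of the Ras tumours 4 of the 43 were higher with JNK blocked (against 2.95% of all genes). They were *klg*, *hbs*, *bdl* and *CadN*, and 0 were lower (against 2.27%). *klg*, an immunoglobulin protein of photoreceptors, had an effect of -2.32 (SE 0.28, adjusted p = 0.0012) there and of 1.65 (SE 0.28, adjusted p = 0.0043) in the Notch tumours. Its effects differed by -3.97 (SE 0.4, adjusted p = 0.00065), a pattern of the same signs as that of *dpr7*. The interaction called 8 of the 43, all more negative in the Ras tumours (against 4.1% of all genes). The median change of the 43 was -0.41 in the Ras tumours and 0 in the Notch tumours. That of the 51 Dpr, DIP, Beat and Side genes was 0 in both. The medians of the lists cannot be compared, since 34 of the 51 lay under 3 log2 on every array. Over the alternatives the count of calls ran from 6 to 10 in *ab* and from 7 to 9 in *scrib-*+*ab*. It ran from 3 to 11 for the JNK effect of the Ras tumours and from 3 to 10 for the interaction.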

How the data were processed

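Biotinylated cRNA from total RNA was hybridised to 21 arrays, 7 groups of 3. The deposited table holds log2 signals of probe sets, which the authors made with GCRMA (version not stated in the sources used here). Arrays give no count depth, and their number limits the precision. Samples were prepared in triplicate per the labels, which do not name separate animals, so p-values measure the spread between these arrays, which may be technical. Per the study's methods, RNA of the control, *ab* and *scrib-*+*ab* was prepared from many pairs of discs, hence from pooled animals. The methods give no number of discs for the Ras and Notch groups.

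Control probe sets (183) were left out and the other 18769 tested without a filter. Of these 13647 had 1 gene symbol in the platform annotation, 402 several and 4720 none, and 13544 matched RefSeq (Release 6 plus ISO1 MT) by gene number. RefSeq served for names and gene order only. limma 3.58.1 under R 4.3.3 (lmFit, eBayes) was applied to *ab*, *scrib-*+*ab* and control (9 arrays), to the 4 Ras and Notch groups for the JNK effects and their interaction (12 arrays), and to all 21 arrays for those groups against the control. P-values were adjusted by Benjamini-Hochberg over all 18769 probe sets, with calls at an adjusted p under 0.05 and an absolute log2 change over 1. The code was tested on simulated data.

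The rule named with all values each gene called in any comparison (at most 20) and by range others with a group mean of at least 5 log2. *dpr8* is given in full, and *side-VII* was singled out after its values were seen. Genes, lists and partner pairs were chosen with earlier results of these data known. Arrays with the same replicate number were compared by their residuals: for *scrib-*+*RasACT* against the control r was 0.107, 0.126 and 0.178. The labels state no pairing, and the values given here come from fits without one. A replicate block, used as an alternative, left the same 4 calls in that comparison.

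Alternatives were a further quantile normalization, a filter (3 arrays at or above 5 log2), trended and robust moderation, the replicate block, other arrays in the fit, the mean over the probe sets of a gene, and each array left out.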

Additional observations from a re-analysis of the deposited data

Results flagged for a closer look

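For 6 genes the JNK effect (log2 level without minus with *bskDN*) differed between the Ras and the Notch tumours by the interaction test of limma. The difference, Ras minus Notch, was -4.64 for *DIP-theta*, -3.66 for *dpr7*, -3.45 for *beat-IIIc*, -3.22 for *dpr9*, -2.49 for *dpr5* and -1.08 for *DIP-delta*, with adjusted p-values between 7.3e-08 and 0.018. *dpr7* and *beat-IIIc* had a negative effect in the Ras tumours and a positive effect in the Notch tumours. *dpr5* also had opposite signs, with effects of -2 and 0.49, the latter under the log2 change of 1. *DIP-theta* and *dpr9* had effects of 0.00 and 0.15 in the Notch tumours, where *DIP-theta* lay near the floor and *dpr9* at 3.14 log2 or below. *DIP-delta* lost its call without *scrib-*+*RasACT* replicate 3 (-0.96) or *scrib-*+*RasACT*+*bskDN* replicate 1 (-0.92), with a further quantile normalization (-0.68, adjusted p = 0.16) and with the mean over the probe sets of a gene (-0.65, adjusted p = 0.042).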

How the results depend on the processing

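Of 56 called changes of single genes, 30 were called under every alternative in which the gene was tested, and no alternative reversed a sign: leaving out an array kept 318 of 372 calls and the other alternatives 257 of 323. The comparisons in which an alternative moved the count of called genes by over 1.5 times were these. Their ranges without single arrays also include smaller moves. In *ab* against the control the 7 calls became 4 with a further quantile normalization, 2 with trended and robust moderation, 4 with the replicate block, 4 with the mean over probe sets, and 4 to 5 without single arrays. The 5 calls of *scrib-*+*ab* against *ab* became 0 with that moderation, 3 with the replicate block and 0 with the 6 arrays alone, where 5 genes had an unadjusted p under 0.05 in each. The 8 calls of *scrib-*+*RasACT*+*bskDN* against the control became 5 with the filter, which left out low genes, and 5 with the mean over probe sets. The 7 JNK calls in the Ras tumours became 4 with the 6 arrays alone. The 5 in the Notch tumours became 3 with that moderation, 1 with the replicate block, 3 with the 6 arrays alone, 3 with the mean over probe sets, and 3 to 4 without single arrays. The cause of these moves was not tested. No comparison other than *scrib-*+*RasACT* against the control had every correlation of arrays with the same number over 0.1. What the replicate numbers mean is not stated in the labels. In *scrib-*+*NACT* the labels shared with the *bskDN* group were 1 and A. Averaging probe sets cut the rise of *dpr9* in *scrib-*+*RasACT*+*bskDN* from 2.72 to 1.49 and that of *dpr16* in *scrib-*+*ab* from 3.17 to 1.58, since their other probe sets lay near the floor. Most of the 51 genes were near background, so a change there could not be measured.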
